A study of Mus musculus with 11 samples.

Results

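Gene-dense tiles are the 630 of 24731 non-overlapping windows of 100 kb on mouse chromosomes 1 to 19 (genome build mm9) that hold the transcription start sites (TSSs) of 5 or more protein-coding genes. Each gene of the GENCODE annotation was given 1 TSS, and genes with symbols starting with Olfr, Vmn or Hist were left out. The tiles make up 2.55% of all tiles but hold 3936 of the 19918 coding genes counted, or 19.8%. Their median is 6 TSSs and their maximum 21, and 33 tiles hold 10 or more. They come in clusters, with 311 of the 630 (49.4%) next to another such tile and the longest run, 8 tiles, at chr7:19500001-20300000. The rule uses gene positions and no measured value.

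The levels come from 11 ChIP-Seq libraries of mouse cells of strain 129 X C57bl/6, 1 library for each condition. Anti-HA libraries were made from KH2 ES cells with HA-H3.3 after 3 and 6 h of doxycycline (Dox, 2 μg/ml), from KH2 ES cells with HA-MacroH2A2 (HA-Macro) without Dox and after 3, 6 and 12 h, and from HA-Macro mouse embryonic fibroblasts (MEFs) after 3, 6 and 12 h. In all of these cells the M2rtTA transactivator stands at ROSA26 and the tagged histone, under the tetracycline operator, at Col1a1, and the MEFs were taken from chimeric embryos and selected with puromycin. An anti-MacroH2A2 antibody gave 1 library from ES cells and 1 from MEFs, labelled as parental ES and wild type MEF cells without treatment and each combining 2 replicates. Other sources give these 2 libraries other Dox states, so that only their antibody and cell type are used. The antibody is taken to read MacroH2A2 whether tagged or not, and a share of tagged protein in its signal cannot be told apart here.

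H3.3 is a form of histone H3 that is put into chromatin outside of DNA replication, where nucleosomes are lost and rebuilt, above all at active promoters and in transcribed genes. MacroH2A is a form of H2A with a large additional domain and is best known from the inactive X chromosome and other silent chromatin. After Dox, the tagged histone marks the places where new protein has been put in, and an early sample therefore reads replacement more than a late one does. Gene-dense stretches of mammalian chromosomes are as a rule rich in GC, replicated early and full of genes used in every cell, but they also hold clusters of duplicated, tissue-restricted genes.

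The promoters of 4 tiles at the ends of the measured range show what such tiles hold. Each line gives the 250 bases upstream of a TSS from mm9, 5′ to 3′ in the sense of transcription, all 4 on the minus strand, with every CG pair in capitals. Hsp90ab1 (chr17:45710221-45710470), for a cytosolic chaperone of the HSP90 family, is in the tile with the most HA-H3.3 at 6 h. Rc3h2 (chr2:37278424-37278673), for an RNA-binding protein of the roquin family, is in the tile where HA-Macro fell most from 3 to 12 h in ES cells. Krt80 (chr15:101200557-101200806), for an epithelial keratin, is in the tile with the most anti-MacroH2A2 in MEFs. Sprr1b (chr3:92242702-92242951), for a precursor of the cornified envelope of the skin, is in the tile with the largest ratio of MEFs over ES cells.
Hsp90ab1: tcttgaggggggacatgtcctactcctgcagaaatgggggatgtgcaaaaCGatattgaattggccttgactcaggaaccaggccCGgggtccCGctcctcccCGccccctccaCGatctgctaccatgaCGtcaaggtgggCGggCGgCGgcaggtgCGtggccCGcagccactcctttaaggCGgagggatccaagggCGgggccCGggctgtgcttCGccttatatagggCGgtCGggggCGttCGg
Rc3h2: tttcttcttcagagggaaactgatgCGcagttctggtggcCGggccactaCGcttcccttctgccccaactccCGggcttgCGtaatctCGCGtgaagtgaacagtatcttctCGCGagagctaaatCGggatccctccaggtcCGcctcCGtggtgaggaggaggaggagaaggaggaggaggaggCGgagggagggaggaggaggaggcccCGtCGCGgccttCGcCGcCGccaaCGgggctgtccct
Krt80: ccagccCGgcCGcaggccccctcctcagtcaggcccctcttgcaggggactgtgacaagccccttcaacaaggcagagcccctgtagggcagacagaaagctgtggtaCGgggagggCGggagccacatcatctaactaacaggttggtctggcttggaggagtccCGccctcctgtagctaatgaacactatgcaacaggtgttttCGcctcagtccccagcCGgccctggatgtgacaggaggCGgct
Sprr1b: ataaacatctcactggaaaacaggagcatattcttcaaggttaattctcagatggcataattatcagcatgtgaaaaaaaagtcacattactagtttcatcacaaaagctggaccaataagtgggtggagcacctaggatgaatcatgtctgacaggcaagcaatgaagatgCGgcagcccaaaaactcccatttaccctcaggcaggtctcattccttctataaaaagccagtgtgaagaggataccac
These windows hold 19, 20, 8 and 1 CG pairs in that order. Over the 3628 coding TSSs of the analysed tiles the median was 9 CG pairs, beside 10 over the other 15542, and at least 1 pair was found in 95.8% and in 95.1% of all windows of this length. Of the promoters in gene-dense tiles 32.6% held 15 or more pairs, beside 37.2% of the others, and 31.0% held 4 or fewer, beside 30.9%.

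Each read was placed by its midpoint and levels are given in p.p.m., the reads of a tile per 1000000 reads of the library on chromosomes 1 to 19, X and Y. All levels and ratios are thus relative, since a tile can fall in p.p.m. when more reads come from the rest of the genome, and they do not show whether the amount of histone in a tile changed. Libraries hold 6488112 to 20541627 mapped intervals. These are 150 bp long in the 7 HA-Macro libraries and 400 bp in the other 4. The HA-Macro ES library at 3 h stands apart from the other 6 HA-Macro libraries. Chromosome Y takes 0.112% of its distinct intervals, beside 0.0198% to 0.0244% in those 6. Results that rest on it are therefore also given with the 6 h library. In the libraries of 400 bp the share was 0.0423% to 0.102%, and it differed within the pairs compared below. It was 0.102% and 0.0673% in HA-H3.3 at 3 and 6 h, and higher in anti-MacroH2A2 ES than in anti-MacroH2A2 MEF (0.0423%). No other library could stand in for these 4, and the part of this difference in their ratios was not tested. Tiles in the highest 1% of no-Dox signal were left out, which removed 42 of the 630 gene-dense tiles (6.67%) but 0.974% of all tiles. This cut, at 52.0 p.p.m., also limits the no-Dox values of the tiles that remain. Of the 42, 15 lie in the stretch chr10:79100001-81100000, in which every gene-dense tile was lost, and their medians there were 57.6 p.p.m. without Dox, 179 for HA-H3.3 at 6 h and 138 for anti-MacroH2A2 in ES cells. A further 2 tiles on chromosome 4, among them that of Ccl27b and Il11ra2, held 0 reads in all 4 libraries of 400 bp intervals and 17.6 to 27.0 p.p.m. in the HA-Macro libraries, and were left out as well. The values below are for the remaining 586 among 23662 analysed tiles, of which 9241 hold 1 to 4 coding TSSs and 13835 hold none.

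The median of gene-dense tiles lay above that of all tiles in every library, and most of all in HA-H3.3 at 6 h. Median HA-H3.3 was 98.4 p.p.m. per tile at 6 h, where the median of all tiles was 28.9 p.p.m., and 73.9 against 35.6 at 3 h. Anti-MacroH2A2 reached 64.1 p.p.m. against 37.3 in ES cells and 45.4 against 38.1 in MEFs. In ES cells HA-Macro stood at 68.2, 59.4 and 56.7 p.p.m. at 3, 6 and 12 h (all tiles 31.9, 34.6 and 34.6), and in MEFs at 44.4, 45.2 and 45.7 (all tiles 34.8, 35.4 and 35.6). The no-Dox library, the uninduced control, gave 43.8 p.p.m. against 37.4. The excess of the gene-dense tiles was thus large in ES cells for both histones, and in MEFs close to that of the no-Dox library. That library is from ES cells with HA-Macro, and there is no uninduced library of MEFs or of ES cells with HA-H3.3.

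Tiles past a fixed fold were also counted. At 1.5-fold or more above the median tile lay 518 of the 586 tiles (88.4%) in HA-H3.3 at 6 h, where 30.1% of all tiles did, and 479 (81.7%) at 3 h, where 17.7% did. For anti-MacroH2A2 it was 384 (65.5%, all tiles 12.3%) in ES cells and 98 (16.7%, all tiles 9.75%) in MEFs. For HA-Macro in ES cells it was 487 at 3 h (83.1%, all tiles 22.7%), 424 at 6 h (72.4%, all tiles 15.4%) and 390 at 12 h (66.6%, all tiles 15.8%). In MEFs it was 165 at 3 h (28.2%, all tiles 17.4%), 174 at 6 h (29.7%, all tiles 16.4%) and 168 at 12 h (28.7%, all tiles 18.5%). Without Dox it was 0, with 0.0% of all tiles, which the cut on that library fixes, since it lies below 1.5 times the median tile. With no tiles left out it was 2.87% (all tiles 0.615%). These shares depend on the tiles they are set against. When all tiles were limited to the GC range of the middle 50% of gene-dense tiles, HA-H3.3 at 6 h fell to 56.2% (all tiles 22.3%). For HA-Macro in ES cells the share fell to 31.2% at 3 h (all tiles 11.1%), 2.74% at 6 h (all tiles 2.42%) and 0.685% at 12 h (all tiles 2.42%). Anti-MacroH2A2 fell to 0.685% both in ES cells (all tiles 0.419%) and in MEFs (all tiles 5.65%). For HA-Macro in MEFs the shares at 3, 6 and 12 h fell below those of all tiles, with the values given under processing. With 1 library for each condition there is no spread between replicates and no test, and intervals given for single tiles are 95% intervals that cover counting error only. A typical gene-dense tile held 479 to 1186 reads, so that counting alone gives a coefficient of variation of 2.93% to 4.59%, whereas the tiles varied among themselves by 23.4% to 44.4% after Dox or with the anti-MacroH2A2 antibody. The 9.95% found without Dox is not comparable, since that library alone was cut on its own values.

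**Figure D1:**
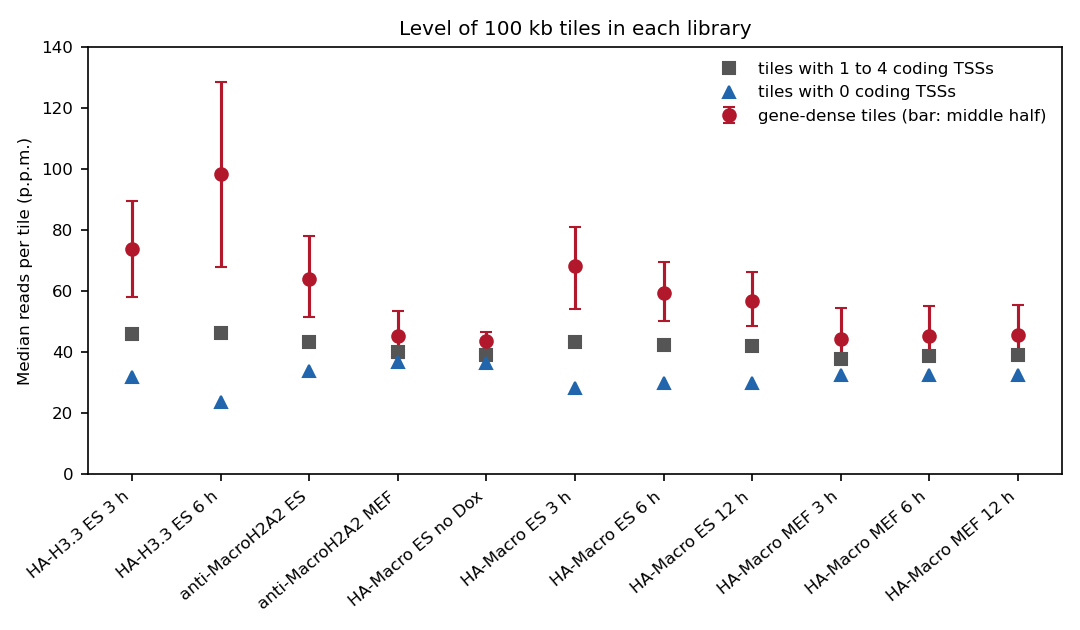
Median p.p.m. of reads per 100 kb tile in each of the 11 libraries for the 586 gene-dense tiles (circles, bars from the lower to the upper quartile), for tiles with 1 to 4 coding TSSs (squares) and for tiles with 0 (triangles). The gene-dense tiles stand highest in HA-H3.3 at 6 h, at 98.4 p.p.m., and near the other classes in the MEF libraries and without Dox.

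The threshold of 5 TSSs falls on a slope and not on a step. Tiles with 4 coding TSSs had median HA-H3.3 of 75.5 p.p.m. at 6 h, those with 5 had 88.1, and those with 10 or more had 148. Anti-MacroH2A2 in ES cells went from 33.7 p.p.m. in tiles without a coding TSS to 52.3 with 4, 59.8 with 5 and 80.1 with 10 or more. In MEFs the same antibody gave 36.8, 40.9, 44.8 and 51.1 p.p.m. in those classes, a much flatter course. GC content climbed along with the number of TSSs, from 39.7% without a coding TSS to 46.3% with 4, 47.8% with 5 and 50.1% with 10 or more. The level of gene-dense tiles exceeded that of other tiles on all 19 autosomes in 9 of the 11 libraries and on 18 in anti-MacroH2A2 MEF and HA-Macro MEF at 3 h.

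**Figure D2:**
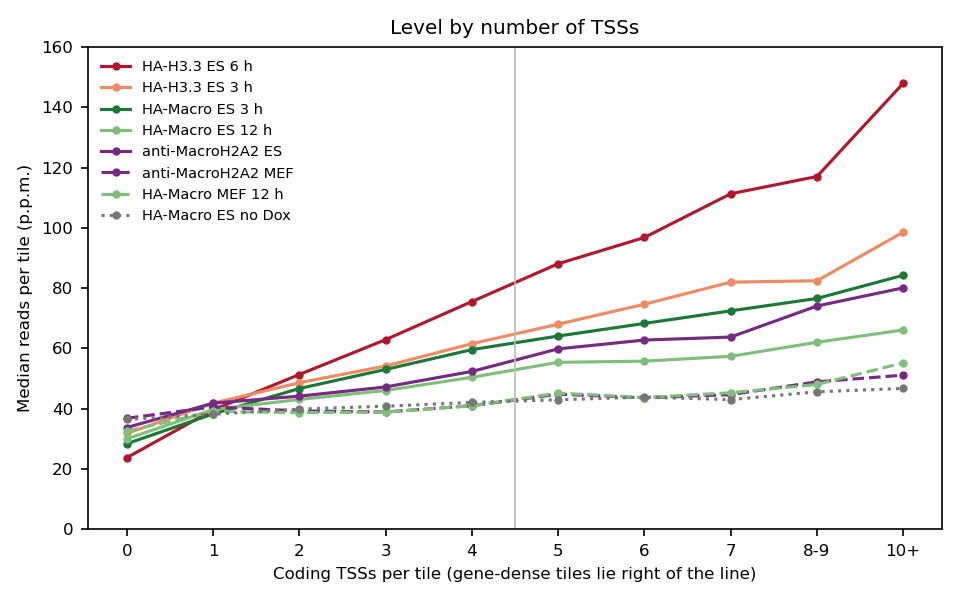
Median p.p.m. per tile (vertical axis) against the number of coding TSSs in the tile (horizontal axis) for 8 of the libraries, with the gene-dense tiles to the right of the grey line. HA-H3.3 at 6 h climbs from 23.7 p.p.m. without a coding TSS to 148 with 10 or more, whereas anti-MacroH2A2 in MEFs moves from 36.8 to 51.1.

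Since GC content moved with gene number, gene-dense tiles were set against other tiles of the same GC content in 7 strata, each 2 percentage points wide. The median GC of gene-dense tiles was 48.2%, beside 43.5% in tiles with 1 to 4 coding TSSs. At matched GC, the 2 cell types parted. Between 48% and 50% GC, 158 gene-dense and 1034 other tiles had median HA-H3.3 of 111 and 70.5 p.p.m. at 6 h. In ES cells HA-Macro stood there at 73.4 and 53.8 at 3 h, 64.5 and 59.0 at 6 h, and 60.8 and 60.2 at 12 h. Anti-MacroH2A2 gave 70.5 and 67.3 in ES cells and 47.2 and 53.8 in MEFs, so that in MEFs the gene-dense tiles were the lower ones. Over the 7 strata the gene-dense tiles were the higher ones in all 7 for HA-H3.3 at 3 h (1.06 to 1.28 times) and 6 h (1.12 to 1.79 times), and for HA-Macro in ES cells at 3 h (1.09 to 1.44 times), 6 h (1.09 to 1.14 times) and 12 h (1.01 to 1.07 times). They were the lower ones in all 7 for anti-MacroH2A2 in MEFs (0.829 to 0.912 times) and for HA-Macro in MEFs at 3 h (0.761 to 0.894 times), 6 h (0.850 to 0.901 times) and 12 h (0.806 to 0.886 times). Anti-MacroH2A2 in ES cells was higher in 4 of the 7 (0.945 to 1.07 times) and the no-Dox library in all 7 (1.01 to 1.09 times). The part of GC content in these levels was not tested beyond this matching.

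**Figure D3:**
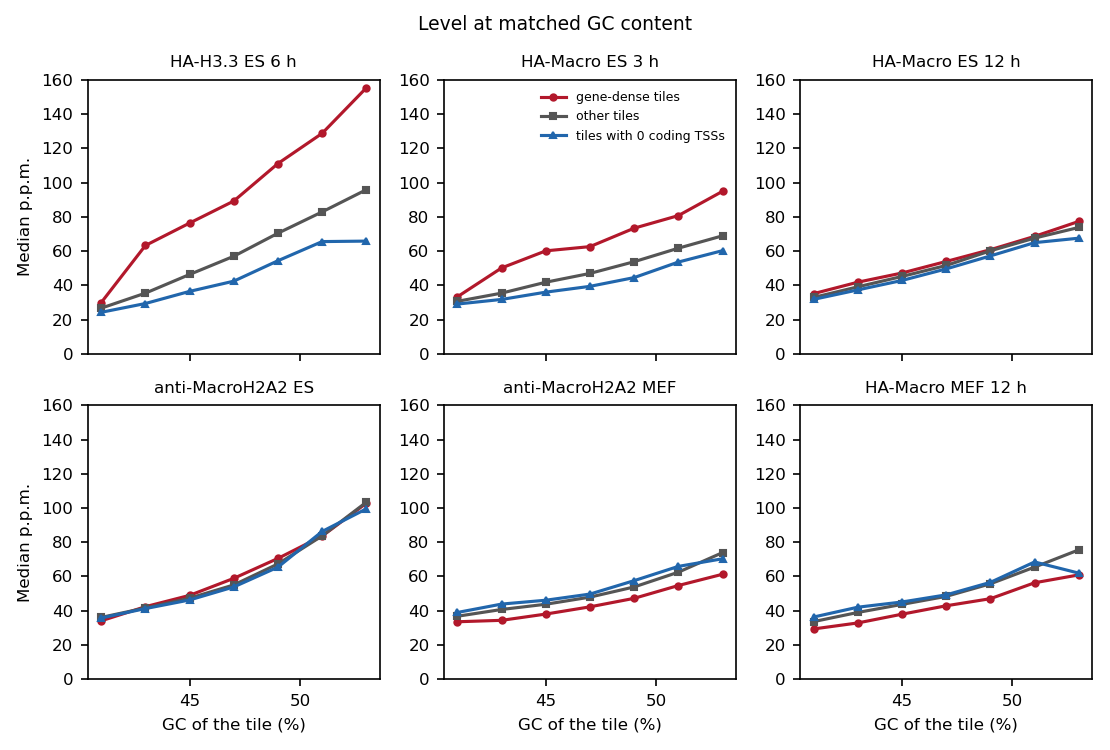
Median p.p.m. per tile (vertical axis) against the GC content of the tile in percent (horizontal axis) for 6 libraries, in gene-dense tiles (circles), other tiles (squares) and tiles with 0 coding TSSs (triangles). The gene-dense tiles lie above the others at each GC content in HA-H3.3 at 6 h and in HA-Macro ES at 3 h, almost on them in HA-Macro ES at 12 h, and below them in both MEF libraries.

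With time after Dox, HA-H3.3 and HA-Macro took opposite courses in these tiles. HA-H3.3 was higher at 6 h than at 3 h, with a median log2 ratio of 0.41, where the median of all tiles was -0.25. Of the gene-dense tiles, 138 (23.5%) rose by 1.5-fold or more and 15 (2.56%) fell by as much, where 4.21% of all tiles rose and 11.7% fell. In the ES cells with HA-Macro, a separate line, the median log2 ratio from 3 h to 6 h was -0.15 beside 0.05 over all tiles. By then 32 gene-dense tiles (5.46%, all tiles 3.83%) had fallen by 1.5-fold or more and 1 (0.171%, all tiles 0.959%) had risen. From 3 h to 12 h the share of HA-Macro reads went down, with a median log2 ratio of -0.20 beside 0.04 over all tiles. It fell by 1.5-fold or more in 85 gene-dense tiles (14.5%, all tiles 7.1%) and rose in 4 (0.683%, all tiles 3.41%). From 6 h to 12 h, without the library that stands apart, the median was -0.07 beside -0.01, 407 of the 586 tiles (69.5%, all tiles 51.6%) lay below 0, and 0 were past 1.5-fold, where 0.211% of all tiles were higher and 0.0% were lower by as much. In MEFs the median log2 ratio of 12 h over 3 h was 0.02, 0 tiles were past 1.5-fold and the background was 0.00423% higher and 0.00845% lower. The ratio of 12 h over 3 h in ES cells was lower in gene-dense tiles than in other tiles on 19 of 19 chromosomes, and that of 12 h over 6 h on 18. At matched GC of 48% to 50%, the first was -0.24 in gene-dense and 0.22 in other tiles, and the second -0.08 and 0.05. The ratio of HA-H3.3 at 6 h over 3 h was there 0.43 in gene-dense and 0.17 in other tiles, above 0 in both. Relative to the no-Dox library, HA-Macro at 12 h was higher by 1.5-fold or more in 107 gene-dense tiles (18.3%, all tiles 6.89%) and lower in 3 (0.512%, all tiles 8.11%).

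Ratios between the histones or antibodies compare libraries of different interval length, a difference that cannot be told apart from that of the proteins. At 6 h HA-H3.3 was higher than HA-Macro in ES cells by 1.5-fold or more in 348 gene-dense tiles (59.4%, all tiles 9.91%) and lower in 27 (4.61%, all tiles 9.97%), and at 3 h it was higher in 2 (0.341%, all tiles 0.516%) and lower in 10 (1.71%, all tiles 3.02%). Anti-MacroH2A2 was higher than HA-Macro at 12 h in 12 tiles in ES cells (2.05%, all tiles 1.35%) and lower in 11 (1.88%, all tiles 3.65%). In MEFs it was higher in 3 (0.512%, all tiles 3.21%) and lower in 11 (1.88%, all tiles 2.21%).

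Between the cell types, relative anti-MacroH2A2 was lower in MEFs than in ES cells in 563 of the 586 gene-dense tiles (96.1%, all tiles 49.4%). The median log2 ratio was -0.48 beside 0.01 over all tiles. It was lower by 1.5-fold or more in 207 tiles (35.3%, all tiles 4.2%) and higher in 0 (all tiles 3.48%). The HA-Macro libraries gave a median of -0.58 at 3 h, with 288 tiles lower by 1.5-fold (49.1%, all tiles 16.3%). At 12 h, where the ES library at 3 h plays no part, the median was -0.33, with 95 tiles lower (16.2%, all tiles 8.11%) and 6 higher (1.02%, all tiles 13.1%). The anti-HA and the anti-MacroH2A2 libraries thus had medians of the same sign. At 48% to 50% GC, the log2 ratio of anti-MacroH2A2 was -0.53 in gene-dense and -0.31 in other tiles.

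Where in the tile the reads lay differed between the histones. Bases within 1 kb of a TSS make up 13.2% of the gene-dense tiles. They held 24.6% of the HA-H3.3 reads at 6 h, at a density of 185 p.p.m. per 100 kb, beside 94.6 in the rest of gene bodies and 70.3 outside genes. Anti-MacroH2A2 in ES cells stood at 86.3 near TSSs, 69.5 in gene bodies and 48.0 outside genes, and in MEFs at 53.3, 46.4 and 42.8. For HA-Macro in ES cells the distribution changed with time. At 3 h it stood at 86.9, 74.5 and 46.1 p.p.m. per 100 kb in these 3 places, at 6 h at 72.1, 60.2 and 54.2, and at 12 h at 62.4, 57.3 and 55.1, so that the excess over the space between genes had nearly gone. The no-Dox library gave 48.9, 44.5 and 39.9. Its density near TSSs was 1.23 times that outside genes, beside 1.13 times for HA-Macro at 12 h.

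The relative decline of HA-Macro in ES cells was found near TSSs and in gene bodies but not outside genes. Ratios by place were taken from the pooled reads of all tiles of a class. Their intervals cover counting error only, whereas the ratios of single gene-dense tiles at 12 h over 3 h had an SD of 0.35. From 3 h to 12 h the log2 ratio was -0.48 (-0.49 to -0.46) near TSSs, -0.38 (-0.39 to -0.37) in gene bodies and 0.26 (0.25 to 0.27) outside genes. From 6 h to 12 h it was -0.21 (-0.22 to -0.19), -0.07 (-0.08 to -0.06) and 0.02 (0.01 to 0.03), in the same order and smaller. In MEFs it was -0.06, 0.03 and 0.06 from 3 h to 12 h. The lower anti-MacroH2A2 of MEFs showed the same gradient, with -0.70 (-0.71 to -0.68) near TSSs, -0.58 (-0.59 to -0.57) in gene bodies and -0.17 (-0.18 to -0.15) outside genes. HA-Macro in MEFs over ES cells gave -0.70, -0.76 and 0.01 in these places at 3 h and -0.43, -0.41 and -0.21 at 6 h. At 12 h it gave -0.28, -0.35 and -0.19, so that gene bodies were lowest at 3 and 12 h. HA-H3.3 went up from 3 h to 6 h in all 3 places, with log2 ratios of 0.66 near TSSs, 0.35 in gene bodies and 0.41 outside genes. Tiles with 1 to 4 coding TSSs showed the same order, with -0.42, -0.29 and 0.29 for HA-Macro in ES cells at 12 h over 3 h (-0.19, -0.05 and 0.05 at 12 h over 6 h) and -0.55, -0.26 and 0.05 for anti-MacroH2A2 in MEFs over ES cells. Tiles with 0 coding TSSs did not, with 0.09, -0.08 and 0.17 for HA-Macro at 12 h over 3 h (0.04, -0.01 and 0.03 at 12 h over 6 h) and -0.03, -0.04 and 0.20 for anti-MacroH2A2, where the TSSs inside the tile are those of annotated genes not counted as coding here.

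Along the 3628 coding TSSs of these tiles, HA-H3.3 at 6 h averaged 230 p.p.m. per 100 kb within 600 bp of the TSS and 107 at 1.5 to 2 kb away, a log2 ratio of 1.11. Anti-MacroH2A2 gave 106 and 64.5 in ES cells (0.71) and 58.4 and 46.3 in MEFs (0.33). The HA-Macro ES libraries gave 100 and 70.98 at 3 h (0.50), 78.5 and 62.7 at 6 h (0.32) and 65.1 and 59.4 at 12 h (0.13). Without Dox the values were 52.9 and 43.8 (0.27), so that at 12 h the promoters stood out less than in the no-Dox library. The highest bin of 100 bp was centred 250 bp downstream of the TSS in the libraries of 400 bp intervals and 150 bp downstream in those of 150 bp, a difference that goes with the interval length. TSSs of tiles with 1 coding TSS stood out more from their surroundings, with a log2 ratio of 1.44 in HA-H3.3 at 6 h and 1.09 in anti-MacroH2A2 ES, at a lower level near the TSS (182 and 99.1).

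**Figure D4:**
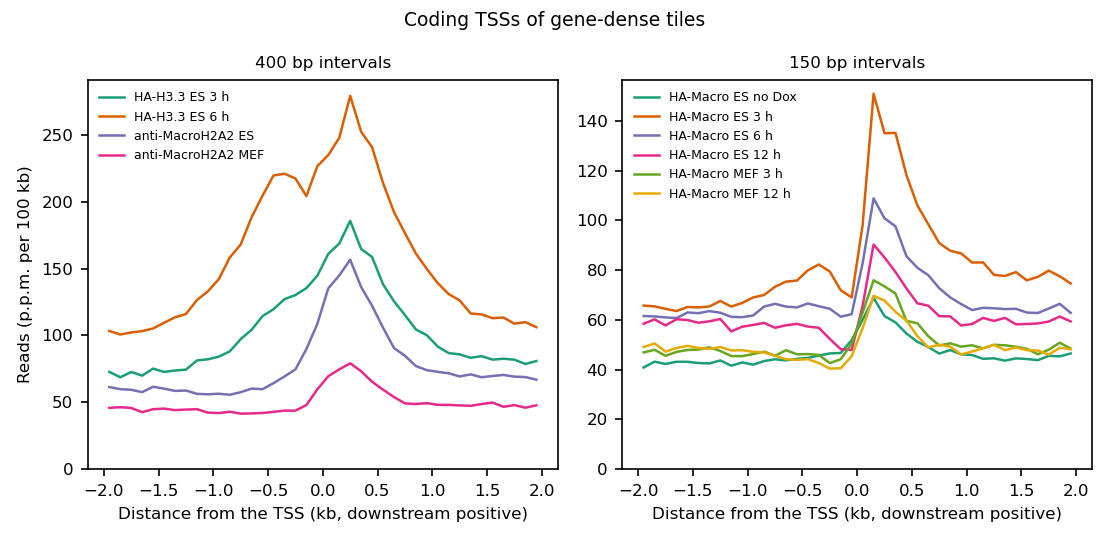
Mean reads in p.p.m. per 100 kb (vertical axis) against distance from the TSS in kb (horizontal axis, bins of 100 bp) over the 3628 coding TSSs of gene-dense tiles, with the libraries of 400 bp intervals on the left and those of 150 bp on the right. HA-H3.3 at 6 h has the highest peak, at 279, and the HA-Macro ES peak shrinks from 151 at 3 h to 90.3 at 12 h.

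These levels also differed with the CG content of the promoter. Within 1 kb of the 1183 TSSs with 15 or more CG pairs upstream, as in the Hsp90ab1 and Rc3h2 windows above, HA-H3.3 at 6 h averaged 285 p.p.m. per 100 kb, and near the 1126 with 4 or fewer, as in the Sprr1b window, it averaged 99.2. In ES cells HA-Macro averaged 124 and 57.7 at 3 h, 84.0 and 60.9 at 6 h, and 63.7 and 60.3 at 12 h. The no-Dox library gave 53.9 and 44.7, so that the uninduced control also differed with CG content. For anti-MacroH2A2 the values were 106 and 72.1 in ES cells beside 52.0 and 53.6 in MEFs. HA-Macro in MEFs was lower at the CG-rich promoters, with 47.9 beside 56.4 at 3 h, 46.98 beside 56.4 at 6 h and 41.7 beside 57.0 at 12 h. At promoters outside gene-dense tiles, with 15 or more CG pairs (5776) and 4 or fewer (4809), anti-MacroH2A2 gave 57.4 and 43.8 in MEFs and 108 and 50.4 in ES cells, and HA-Macro in MEFs gave 51.6 and 45.1 at 3 h, 51.3 and 44.7 at 6 h and 44.98 and 45.5 at 12 h. The 4 promoters printed above come from tiles that were chosen as extreme in these libraries, so that their values are a description. Within each tile the promoter with the most reads was then taken, among named genes whose upstream window overlaps no annotated gene. Those reads were of HA-H3.3 at 6 h for Hsp90ab1, HA-Macro ES at 3 h for Rc3h2 and anti-MacroH2A2 MEF for Krt80 and Sprr1b. The values in these libraries are thus high by choice. Within 1 kb of the Hsp90ab1 TSS, HA-H3.3 was 5.55 and 5.32 p.p.m. at 3 and 6 h, the anti-MacroH2A2 antibody gave 2.34 in ES cells and 1.21 in MEFs, and HA-Macro was 1.60 without Dox, 4.08, 2.48 and 2.02 in ES cells at 3, 6 and 12 h and 1.06, 0.551 and 0.584 in MEFs. At Rc3h2 the values in the same order were 2.78 and 4.76, 1.52 and 0.269, 1.28, 1.84, 1.36 and 0.956, and 0.355, 0.551 and 0.243. Both CG-rich promoters thus had less HA-Macro in each MEF library than in the no-Dox library, which is from ES cells. At Krt80 HA-H3.3 was 1.85 and 2.71, anti-MacroH2A2 5.03 and 3.89, and HA-Macro 1.28 without Dox, 1.72, 2.54 and 2.28 in ES cells and 5.77, 4.13 and 3.94 in MEFs. At Sprr1b HA-H3.3 was 0.463 and 0.280, anti-MacroH2A2 0.468 and 1.28, and HA-Macro 0.239 without Dox, 0.287, 0.395 and 0.319 in ES cells and 0.799, 1.19 and 0.876 in MEFs. These 2 promoters had more HA-Macro in each MEF library than in any HA-Macro ES library. The counts behind these values are small, from 3 to 81 reads, and no interval is given for them.

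Levels were also followed beyond the borders of the gene-dense tiles. Tiles 100 kb away that are not gene-dense (727) had median HA-H3.3 of 68.3 p.p.m. at 6 h, those 500 kb away 42.1 and those 1000 kb away 35.3, still above the 28.9 of all tiles. Anti-MacroH2A2 in ES cells went from 64.1 in the tiles to 54.5 at 100 kb and 40.9 at 1000 kb, and in MEFs from 45.4 to 43.0 and 39.9. Neighbours also hold genes, with a mean of 2.21 coding TSSs at 100 kb and 0.847 at 1000 kb. The 82 neighbours at 100 kb without a coding TSS had HA-H3.3 of 41.0 p.p.m. at 6 h and anti-MacroH2A2 of 44.9 in ES cells, beside 25.5 and 35.9 in the 150 such tiles at 1000 kb. Anti-MacroH2A2 in MEFs was 39.2 in both.

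Across the 586 tiles, the anti-MacroH2A2 and the HA-Macro library of the same cell type followed each other (ES cells at 12 h, Pearson's r = 0.84, MEFs at 12 h, r = 0.89), and so did ES cells and MEFs (anti-MacroH2A2, r = 0.81, HA-Macro at 12 h, r = 0.72). HA-H3.3 at 6 h followed HA-Macro in ES cells at 3 h with r = 0.88, at 6 h with r = 0.81 and at 12 h with r = 0.66. It followed HA-Macro in MEFs at 12 h with r = 0.31. Over all 23662 tiles these values were 0.80, 0.90, 0.74, 0.60, 0.90, 0.85, 0.71 and 0.35. All points share the GC content and mappability of their tile, and neighbouring tiles are not independent.

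The single tile with the most HA-H3.3 at 6 h was chr17:45700001-45800000, with Slc35b2, a transporter of the sulfate donor PAPS, Hsp90ab1, the nucleoside transporter gene Slc29a1 and Capn11, a calpain protease. It held 240 p.p.m. (231 to 250) at 6 h and 137 (128 to 146) at 3 h, and with the anti-MacroH2A2 antibody 67.5 in ES cells and 57.8 in MEFs. HA-Macro there was 46.0 without Dox, 99.5, 84.7 and 70.5 in ES cells at 3, 6 and 12 h, and 67.5, 67.1 and 67.8 in MEFs. It was thus extreme in H3.3 and near the middle of the gene-dense tiles in anti-MacroH2A2 of ES cells, but high in HA-Macro. In ES cells HA-Macro lay above the 95th percentile of gene-dense tiles at 3 and 6 h (96.9 and 83.7). At 12 h it lay above their upper quartile (66.3). In MEFs HA-Macro and anti-MacroH2A2 also lay above the upper quartiles (54.4, 55.1 and 55.4 at 3, 6 and 12 h, and 53.5). The next in HA-H3.3 were the tile of Prr12, Nosip, Prrg2 and Rcn3 at chr7:52300001-52400000 (219 p.p.m.), and that of Wbscr27, Cldn4, Cldn3 and Abhd11 at chr5:135400001-135500000 (211), where Cldn3 and Cldn4 encode claudins of epithelial tight junctions. They were followed by the tile of Isyna1, Ssbp4, Lrrc25 and the stress cytokine gene Gdf15 at chr8:73100001-73200000 (210) and that of Lmna, for the nuclear lamins A and C, Mex3a, Rab25 and Lamtor2 at chr3:88300001-88400000 (207). These 5 tiles differed in anti-MacroH2A2, with 98.4 p.p.m. in ES cells in the Gdf15 tile and 68.6 in the Lmna tile. All 5 are described here because they were highest in this library.

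Anti-MacroH2A2 in ES cells was highest at chr7:51700001-51800000, with Aspdh, the deubiquitinase gene Josd2, Fam71e1 and Mybpc2, a myosin-binding protein of fast muscle. The tile held 133 p.p.m. (126 to 141) in ES cells and 70.1 (65.9 to 74.5) in MEFs, HA-H3.3 of 107 and 138 at 3 and 6 h, and HA-Macro of 48.4 without Dox, 93.9, 91.1 and 92.6 in ES cells and 57.8, 59.4 and 61.6 in MEFs. HA-Macro there held its level from 3 h to 12 h. In MEFs the order was different, and the highest tile was that of the keratins Krt80, Krt7, Krt83 and Krt81 at chr15:101200001-101300000. It held 95.3 p.p.m. (90.4 to 100.3) of anti-MacroH2A2 in MEFs and 82.4 (76.4 to 88.7) in ES cells, with HA-H3.3 of 58.6 and 47.2. HA-Macro there was 46.5 without Dox, 40.6, 56.4 and 64.4 in ES cells at 3, 6 and 12 h, and 120, 110 and 114 in MEFs. HA-Macro rose at this tile in ES cells from 3 h to 12 h (log2 ratio 0.66, 0.53 to 0.80), against the course of most gene-dense tiles. High in both cell types were the tile of Grin2c, a glutamate receptor subunit, Fdxr, Fads6 and Otop2 at chr11:115100001-115200000 (123 p.p.m. in ES cells, 93.4 in MEFs) and that of Ubxn6, Hdgfrp2 and the lipid droplet genes Plin4 and Plin5 at chr17:56200001-56300000 (123 and 90.4).

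The largest fall of HA-Macro in ES cells from 3 h to 12 h was at chr2:37200001-37300000, with the phosducin-like gene Pdcl, Rc3h2 and the zinc finger genes Zbtb26 and Zbtb6. The values in ES cells were 48.3 p.p.m. without Dox, 62.6 at 3 h, 34.4 at 6 h and 29.5 at 12 h, a log2 ratio of -1.09 (-1.24 to -0.94) for 12 h over 3 h. At 12 h the tile lay below its own no-Dox level, and from 6 h to 12 h the log2 ratio was -0.22. In MEFs HA-Macro was 21.6, 22.2 and 19.96, anti-MacroH2A2 was 35.6 in ES cells and 25.6 in MEFs, and HA-H3.3 was 52.4 and 71.3. Log2 ratios close to -1 were also found for Hax1, an inhibitor of apoptosis, Ubap2l and the tropomyosin gene Tpm3 at chr3:89800001-89900000 (-1.02), for Glt8d1, Spcs1, the nucleolar GTPase gene Gnl3 and Pbrm1, a subunit of the PBAF remodeller, at chr14:31800001-31900000 (-1.01), and for Rprd2, the splicing factor gene Prpf3, Mrps21 and Aph1a at chr3:95600001-95700000 (-1.01). From 6 h to 12 h these 3 gave -0.15, -0.24 and -0.42. All 4 tiles were below the median gene-dense tile in both anti-MacroH2A2 libraries.

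A rise past 1.5-fold from 3 h to 12 h was found in 4 gene-dense tiles, although 170 of the 586 (29.0%, all tiles 56.5%) lay above 0. At chr7:31800001-31900000, HA-Macro in ES cells rose from 46.2 p.p.m. at 3 h to 72.3 at 6 h and 74.0 at 12 h. This tile holds Fxyd5, Fxyd7 and Fxyd1, regulators of the sodium pump, and Lgi4, and its log2 ratio was 0.68 (0.55 to 0.81) for 12 h over 3 h and 0.03 for 12 h over 6 h. In MEFs HA-Macro there was 75.2, 75.4 and 77.3, and anti-MacroH2A2 was 83.9 in ES cells and 67.8 in MEFs. The other 3 tiles past 1.5-fold were those of Krt80, of Omt2a and Omt2b, genes of the oocyte, at chr9:78100001-78200000 (0.64, 0.50 to 0.79), and of the protease inhibitor genes Wfdc6a, Spinlw1, Wfdc6b and Wfdc8 at chr2:164400001-164500000 (0.61, 0.46 to 0.76). From 6 h to 12 h these 3 gave 0.19, 0.16 and 0.17.

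Anti-MacroH2A2 was lower in MEFs by the most at chr2:30200001-30300000, with Sh3glb2, Fam73b, Dolpp1 and the carnitine acetyltransferase gene Crat. It held 93.4 p.p.m. in ES cells and 43.2 in MEFs (log2 ratio -1.11, -1.27 to -0.96), and HA-Macro held 103, 71.2 and 63.7 in ES cells and 42.9, 44.7 and 43.9 in MEFs. Close to it were Thra, for the thyroid hormone receptor alpha, Nr1d1, for the clock repressor Rev-erb alpha, Msl1 and Casc3 at chr11:98600001-98700000 (-1.09), the kinase gene Cdk5 with Accn3, Slc4a2 and Fastk at chr5:23900001-24000000 (-1.03), Aurkaip1, Mxra8, the Wnt pathway gene Dvl1 and Tas1r3 at chr4:155200001-155300000 (-1.02), and Cpt1c, the arginine methyltransferase gene Prmt1, Irf3 and Bcl2l12 at chr7:52200001-52300000 (-1.02). HA-Macro at 12 h was lower in MEFs in these 5 tiles as well, with log2 ratios of -0.54, -0.73, -0.60, -0.56 and -0.70.

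The gene-dense tile with the highest ratio of MEFs over ES cells, short of 1.5-fold, was chr3:92200001-92300000 with the small proline-rich genes Sprr2i, Sprr2k and Sprr1b, which held 36.2 p.p.m. in ES cells and 51.4 in MEFs (log2 ratio 0.51, 0.31 to 0.70). HA-Macro there was 34.9 without Dox, 25.4, 24.0 and 26.2 in ES cells and 46.9, 47.2 and 46.8 in MEFs, and HA-H3.3 was 30.1 and 19.5. The interferon tile chr4:88400001-88500000 (0.39), the tile of the interferon-induced GTPase genes Tgtp1, Tgtp2 and Ifi47 at chr11:48800001-48900000 (0.39), the keratin-associated tile chr11:99400001-99500000 (0.36) and the late cornified envelope tile chr3:92700001-92800000 with Lce3a, Lce3b, Lce3c and Lce3f (0.35) followed. The values of the Tgtp1 tile were 13.6 p.p.m. in ES cells and 17.8 in MEFs. HA-Macro at 12 h was also higher in MEFs in the Sprr2i and Tgtp1 tiles (log2 ratios 0.84 and 0.64). It was lower in MEFs in the interferon and Lce3a tiles (-0.15 and -0.14). The interferon and Tgtp1 tiles are among 8 gene-dense tiles that were low in the libraries of 400 bp intervals, as described below.

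In MEFs, where the gene-dense tiles as a group kept their HA-Macro level, the tile of Thra and Nr1d1 had the lowest ratio of 12 h over 3 h, with HA-Macro of 47.8, 46.0 and 38.6 p.p.m. (log2 ratio -0.31, -0.47 to -0.15). Among the highest was 0.35 (0.12 to 0.58), found in the tile of Ubfd1, Ears2, Ndufab1 and the DNA repair gene Palb2 at chr7:129200001-129300000, with 20.2, 24.1 and 25.7 p.p.m. The spread of this ratio over the gene-dense tiles was an SD of 0.10 on the log2 scale, where counting alone gives 0.08, so that single tiles were hardly separated by it.

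The densest tiles were not all alike. The interferon cluster on chromosome 4, with Ifnz, Ifna7, Ifna11 and Ifna6 among 21 coding TSSs, held 18.2 and 19.9 p.p.m. of HA-H3.3, 18.5 and 24.2 of anti-MacroH2A2 in ES cells and MEFs, but 48.0 without Dox, 51.9, 69.4 and 63.8 of HA-Macro in ES cells and 62.4, 59.7 and 57.3 in MEFs. The tile with the next number, 16, at chr17:35200001-35300000 with Ly6g6c, Ly6g6e, Ly6g6d and Ly6g6f, surface protein genes of the MHC region, held 103 and 141 of HA-H3.3 and 94.5 and 51.1 of anti-MacroH2A2. The 3 keratin-associated tiles from chr11:99400001 to 99700000 have 15 TSSs each, and held 25.5, 30.2 and 24.5 of HA-H3.3 at 6 h and 76.9, 68.9 and 49.6 of anti-MacroH2A2 in MEFs. Many TSSs in a tile thus came with both high and low HA-H3.3.

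The interferon tile belongs to a group in which the 2 kinds of library disagree. In 8 of the 586 gene-dense tiles (1.37%) and 2.36% of all tiles, the mean of the 4 libraries of 400 bp intervals was below 50% of the no-Dox level. The most marked were chr14:8000001-8100000 with predicted genes such as Gm3512 (1.54, 1.77, 2.22 and 1.28 p.p.m. in HA-H3.3 at 3 and 6 h and anti-MacroH2A2 in ES cells and MEFs, against 48.4 without Dox and 28.7 to 47.0 in the other HA-Macro libraries) and chr8:22400001-22500000 with the alpha-defensin genes Defa3 and Defa5 (4.47, 2.52, 3.39 and 3.02 against 27.3 and 15.3 to 25.9). Reads that fit several sites were, by the authors' methods, placed at 1 of them at random. How many such reads these tiles hold was not measured, and the part of read assignment in the difference between the 2 kinds of library was not tested. The 5 lowest gene-dense tiles are all among these 8 in both HA-H3.3 libraries and in anti-MacroH2A2 ES, and 4 of the 5 lowest are in anti-MacroH2A2 MEF.

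Among the gene groups with 3 or more analysed tiles, median HA-H3.3 at 6 h ranged from 23.6 p.p.m. in the tiles of Sprr and Lce genes to 133 in those of ribosomal genes. The 24 analysed tiles with genes of the cytosolic ribosome (28 of 76 annotated Rpl and Rps genes lie in gene-dense tiles) had a median HA-H3.3 of 133 p.p.m. at 6 h, beside 98.4 for all gene-dense tiles, and 19 of the 24 lay above that value. Their anti-MacroH2A2 was 61.0 in ES cells and 43.2 in MEFs, beside 64.1 and 45.4. Their HA-Macro in ES cells had a median log2 ratio of -0.41 for 12 h over 3 h (all gene-dense -0.20) and -0.12 for 12 h over 6 h (-0.07). The steepest of them was the tile of Kifc1, the histone chaperone gene Daxx, Tapbp and Zbtb22 at chr17:34000001-34100000, with HA-Macro of 113, 68.2 and 59.2 in ES cells and anti-MacroH2A2 of 76.8 in ES cells and 38.5 in MEFs. The 14 tiles with Psm symbols were grouped by symbol, and 13 of them hold genes of the proteasome and its activators, whereas 1, at chr11:100900001-101000000, is in the group only for Psmc3ip, which serves meiotic recombination. They were near the middle, with HA-H3.3 of 104 at 6 h and a log2 ratio of -0.33 for 12 h over 3 h and -0.09 for 12 h over 6 h. Among them, the tile of Tap1, Psmb9, Psmb8 and Tap2, which serve antigen presentation, had the highest ratios, 0.54 and 0.22, and the lowest HA-H3.3 at 6 h, 55.6. The 8 tiles of zinc finger clusters (Zfp) had lower HA-H3.3 (76.7) and lower anti-MacroH2A2 in ES cells (49.7) and MEFs (36.3), at a median GC of 44.8%.

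The 5 Hox tiles, which hold homeobox genes of body patterning that ES cells keep silent, had HA-H3.3 of 58.2 to 95.7 p.p.m. at 6 h, all below the median of the gene-dense tiles. Anti-MacroH2A2 was 52.0 to 67.0 in MEFs, all above the median of 45.4, and 58.4 to 82.2 in ES cells. Their HA-Macro in ES cells had a log2 ratio of 0.10 to 0.36 for 12 h over 3 h, above 0 in all 5, and -0.21 to 0.00 for 12 h over 6 h, so that the direction turned with the earlier library. The GC content of these tiles, 48.9%, was close to the 48.2% of all gene-dense tiles.

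The 13 tiles of keratins and keratin-associated proteins (76 of 100 annotated genes), which build skin and hair, had a median HA-H3.3 of 25.8 p.p.m. at 6 h, with 12 of 13 below the median of the gene-dense tiles, and a median log2 ratio of -0.57 for 6 h over 3 h. Anti-MacroH2A2 was 59.9 in ES cells, near the 64.1 of all gene-dense tiles, and 53.2 in MEFs, above the 45.4. HA-Macro at 12 h was 42.8 in ES cells and 58.5 in MEFs (all gene-dense 56.7 and 45.7). The exception in HA-H3.3 was the tile of Krt16, Krt17 and Krt42 at chr11:100100001-100200000, which also holds the translation factor gene Eif1 and had 178 p.p.m. at 6 h. The 5 tiles of Sprr and Lce genes lay below the median of the gene-dense tiles in the ES libraries, with HA-H3.3 of 19.5 to 26.4 at 6 h and anti-MacroH2A2 of 29.7 to 42.3 in ES cells, at a GC of 38.3% to 41.0%. The 6 tiles of defensins (Defa and Defb) and the 3 of kallikreins (Klk) had HA-Macro ratios of 12 h over 3 h of 0.34 and 0.42 at the median, and of 0.09 and 0.22 for 12 h over 6 h. The 3 protocadherin tiles (Pcdh), for adhesion proteins of neurons, had the lowest HA-Macro of these groups in MEFs at 12 h, 20.9, beside 34.8 in ES cells. The 3 tiles with at least 3 H2- genes of the MHC were mixed, with HA-H3.3 of 40.8 to 119 at 6 h.

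**Figure D5:**
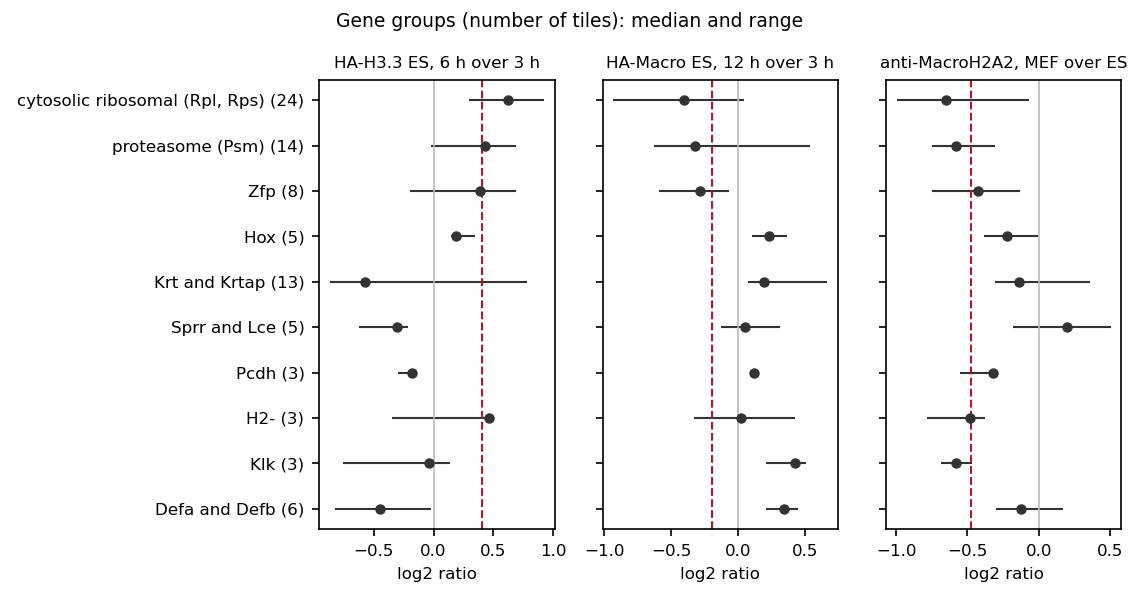
Log2 ratio (horizontal axis) of HA-H3.3 at 6 h over 3 h, of HA-Macro in ES cells at 12 h over 3 h and of anti-MacroH2A2 in MEFs over ES cells for each gene group (rows, number of tiles in parentheses), as median (point) and range (bar). The red dashed line is the median of all 586 gene-dense tiles, and the keratin tiles lie left of it at -0.57 in the first panel and right of it at 0.19 in the second.

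ChIP-Seq reads do not show which genes are expressed, so that marker genes cannot check the identity of the cells here. Of 8 pluripotency genes, Pou5f1 and Dppa5a lie in gene-dense tiles, and of 8 fibroblast genes 0 do. The Pou5f1 tile, chr17:35600001-35700000, held HA-H3.3 of 101.5 and 194 p.p.m. at 3 and 6 h and anti-MacroH2A2 of 71.7 in ES cells and 56.3 in MEFs. HA-Macro there was 44.6 without Dox, 85.0, 84.8 and 71.9 in ES cells and 71.4, 71.7 and 69.9 in MEFs, so that the 2 cell types were level at 12 h. The Dppa5a tile, chr9:78200001-78300000, held HA-H3.3 of 63.4 and 118, anti-MacroH2A2 of 51.0 and 44.8, and HA-Macro of 43.8 without Dox, 62.7, 62.4 and 55.6 in ES cells and 41.9, 47.1 and 47.6 in MEFs. Both tiles were above the median of the gene-dense tiles in HA-H3.3 at 6 h, and the Pou5f1 tile was so also in the 3 MEF libraries of HA-Macro.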

How the data were processed

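Deposited for each of the 11 ChIP-Seq libraries were the mapped intervals of its reads. According to the submitters' processing notes and methods, the authors mapped reads to mm9 with Bowtie 1.0, allowed 1 mismatch, placed reads that fit several sites at 1 of them at random and extended each read to 150 bp. The deposited mapped intervals are 150 bp long in the 7 HA-Macro libraries but 400 bp in the other 4. Intervals that repeat another one exactly make up 3.27% to 6.00% of the former and 0.462% to 0.693% of the latter. A ratio between the 2 kinds thus also compares interval lengths and shares of repeated intervals.

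Midpoints were counted in 100 kb tiles and scaled per 1000000 midpoints on chromosomes 1 to 19, X and Y. Repeated intervals were kept. Tiles in the highest 1% without Dox and tiles with 0 midpoints in any library were left out. TSSs came from GENCODE vM1 and sequence from mm9. A tile counted as higher or lower at 1.5-fold or more, either over the median tile of the library or between 2 libraries. Intervals are exact 95% Poisson intervals for levels and conditional binomial intervals for ratios, and cover counting error only. The 1.5-fold calls and the intervals of ratios were tested on simulated tile counts that held counting error only. Python 3.11.15, NumPy 2.4.6, pandas 2.3.3, SciPy 1.17.1 and matplotlib 3.10.9 were used.

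Tiles named are the 10 with the most coding TSSs and the 5 highest and 5 lowest in anti-MacroH2A2 ES, anti-MacroH2A2 MEF, HA-H3.3 at 6 h and in 3 log2 ratios (HA-Macro 12 h over 3 h in ES cells and in MEFs, anti-MacroH2A2 MEFs over ES cells), from which the text takes those described, with up to 4 genes each in order of position. Some tiles that this rule names are not reported here. Gene groups were formed by symbol, and those with under 3 analysed tiles are not described. Members, gene groups and markers were chosen with earlier results of these data known. Tiles of the Krt16 group, the Daxx tile and the Tap1 tile were named after their values were seen.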

Additional observations from a re-analysis of the deposited data

Results flagged for a closer look

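The change of HA-Macro from 3 h to 12 h of Dox in gene-dense tiles differed between the cell types, with a median log2 ratio of -0.20 in ES cells, where 416 of 586 tiles (71.0%, all tiles 43.5%) lay below 0, and 0.022 in MEFs, where 241 (41.1%, all tiles 46.0%) did. Each value rests on 1 library per time and the difference was not tested. The ES library at 3 h is the one in which chromosome Y took 0.112% of the distinct intervals, and from 6 h to 12 h the median in ES cells was -0.07.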

How the results depend on the processing

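In all, 11 alternatives were tried, 1 of them (leaving out tiles low in the libraries of 400 bp intervals) chosen after seeing the data. Of 279 recomputed shares of gene-dense tiles past 1.5-fold, 247 stayed within 1.5 times the value reported. Of 170 recomputed median log2 ratios, 0 were counted as a change of sign. That count passed over ratios with a reported median close to 0, such as HA-Macro at 12 h over 6 h in ES cells and at 12 h over 3 h in MEFs. Among tiles within the GC range of the middle 50% of gene-dense tiles, the share at 1.5-fold above the median tile, which there is itself a GC-rich tile, was 21.2% and 56.2% for HA-H3.3 at 3 and 6 h (all tiles 5.98% and 22.3%), 31.2%, 2.74% and 0.685% for HA-Macro in ES cells at 3, 6 and 12 h (11.1%, 2.42% and 2.42%), 3.08%, 2.05% and 1.71% in MEFs (12.6%, 10.5% and 11.8%), and 0.685% in each of the anti-MacroH2A2 libraries (0.419% in ES cells, 5.65% in MEFs). After division by the no-Dox level of the tile in ES cells it was 43.2% and 30.9% for HA-Macro in ES cells at 6 and 12 h (all tiles 9.48% and 10.2%), 11.9%, 9.22% and 11.8% in MEFs at 3, 6 and 12 h (16.7%, 15.4% and 17.8%), and 3.92% for anti-MacroH2A2 in MEFs (9.46%), so that the MEF shares lay below those of all tiles. With no tiles discarded, the no-Dox share was 2.87% (all tiles 0.615%). With ratios centred on the median tile, HA-H3.3 at 6 h over 3 h was higher in 60.1% (23.5% uncentred, all tiles 12.5% centred), HA-Macro ES at 12 h over no Dox higher in 30.9% (18.3%, all tiles 10.2%), and HA-Macro at 12 h lower in MEFs in 10.2% (16.2%, all tiles 6.12%).

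Of the ratios between libraries of different interval length, HA-H3.3 over HA-Macro at 6 h was higher in 42.5% to 74.2%, within 1.5 times the 59.4% reported, and 3 that passed 1.5-fold in few tiles moved. HA-H3.3 over HA-Macro at 3 h was higher in 0.341% (0.684% at equal depth), and in 0.0% with centring, with GC-limited tiles, with 7 or more TSSs per tile or with distinct intervals. Anti-MacroH2A2 ES over HA-Macro ES at 12 h was higher in 2.05%, in 0.341% with centring, 0.342% with GC-limited tiles or distinct intervals, 3.11% with 7 or more TSSs and 1.19% without bases within 1 kb of a TSS. Anti-MacroH2A2 MEF over HA-Macro MEF at 12 h was lower in 1.88%, in 1.01% with tiles shifted by 50 kb and in 0.692% without the tiles low in the libraries of 400 bp intervals. No paired analysis was possible because each condition has 1 library.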

Other observations

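The 42 gene-dense tiles left out for their no-Dox level had medians of 158 p.p.m. of HA-H3.3 at 6 h (analysed gene-dense tiles 98.4), and with the anti-MacroH2A2 antibody 109 in ES cells (64.1) and 61.9 in MEFs (45.4). The lowest of the 42 held 2.80 of HA-H3.3 at 6 h and 2.81 of anti-MacroH2A2 in ES cells. The stretch chr10:79100001-81100000 holds widely used genes such as Eef2, for a translation elongation factor, Dot1l, for a histone H3 methyltransferase, and the splicing regulator gene Ptbp1, beside neutrophil protease genes such as Elane and Prtn3. In its 15 gene-dense tiles HA-Macro had medians of 119, 105 and 95.1 p.p.m. in ES cells at 3, 6 and 12 h and 73.5, 71.7 and 69.3 in MEFs. These genes were named after their values were seen.

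Among the analysed gene-dense tiles themselves, levels followed GC content. The 147 with the highest and the 147 with the lowest GC had median HA-H3.3 of 130.0 and 61.9 p.p.m. at 6 h, anti-MacroH2A2 of 86.8 and 44.1 in ES cells, and of 55.9 and 35.5 in MEFs. The log2 ratio of anti-MacroH2A2 in MEFs over ES cells was -0.66 and -0.28, and that of HA-Macro in ES cells was -0.19 and -0.12 at 12 h over 3 h and -0.07 and -0.04 at 12 h over 6 h.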
